A study of Rattus norvegicus with 4 samples.

Results

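Small RNA of the rat hippocampus recovered by Piwil2 immunoprecipitation was compared between the library labelled HPC0h, taken at 0 h, and the library labelled Sham. Both libraries came from RNA immunoprecipitation (RIP) of the CA1 region of adult male Wistar rats aged 7 to 8 weeks, and a control library labelled IgG was made the same way. The labels do not spell out HPC and give no other treatment for these groups. The series also holds a tGCI26h library (transient global cerebral ischemia), which no comparison here uses. Although the design text speaks of 3 replicates a group, each group was 1 library in the data analysed, and pooling of animals is not stated. In the count table the HPC0h column is headed P0 and the Sham column S, and the match rests on the 0 of 0 h and on the initial letter. The members of the comparison were the sequences with 10 or more counts in HPC0h or in Sham, which were 2020 of the 3129 sequences listed (64.6%).

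PIWI proteins are Argonaute-family proteins that carry small guide RNAs called piRNAs, which are slightly longer than microRNAs and often begin with a uridine. They are best known from the germline, where piRNAs silence transposons, and Piwil2 is 1 of the mammalian PIWI proteins. Small-RNA libraries also take up fragments of abundant RNAs, among them ribosomal RNA (rRNA), transfer RNA (tRNA), the small nuclear RNAs (snRNAs) of the spliceosome and Y RNAs, and reads of such fragments overlap heavily. Overlapping sequences were therefore joined into families wherever they shared a stretch of 20 bases, and a family was named after the RNA its sequence was recognised as. These RNA names are provisional, because no reference sequence of these RNAs was used to check them.

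The listed sequences held 830634 tags in HPC0h, 159215 in Sham and 668857 in IgG, so HPC0h was 5.22 times as deep as Sham. HPC0h listed 2849 sequences and Sham 1749, and thinning HPC0h to the depth of Sham would be expected to leave 2055 listed. The lowest value in each column was 2, and a blank was counted as 0, although the authors' normalized table has values for 195 blanks of HPC0h and 807 of Sham. Counts were divided by the column totals to give CPM, the counts per 1000000 tags, and each ratio is HPC0h over Sham with an exact Clopper-Pearson 95% interval. These intervals cover counting error only, since PCR copies were not told apart by molecular identifiers, and with 1 library per group no difference has a replicate check or a p-value.

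The sequences on which the largest family turned are shown first. They all come from the recognised 5′ end of 28S rRNA, the main RNA of the ribosome's large subunit, and differ by a few bases at either end. Lower case marks the 33 bases that all 8 share, and capitals mark the bases outside that stretch.
novel_88_x12235: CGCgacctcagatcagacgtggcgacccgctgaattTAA
novel_61_x20743: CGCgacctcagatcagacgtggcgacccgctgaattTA
novel_43_x30099: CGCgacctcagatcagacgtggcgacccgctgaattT
novel_22_x47777: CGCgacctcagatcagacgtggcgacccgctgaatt
novel_12973_x153: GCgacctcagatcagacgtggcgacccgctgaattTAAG
novel_896_x1768: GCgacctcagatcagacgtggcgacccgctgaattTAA
novel_3847_x482: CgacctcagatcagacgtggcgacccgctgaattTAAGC
novel_3110_x591: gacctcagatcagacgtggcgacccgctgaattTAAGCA

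Many of the sequences with the lowest ratios belonged to U2 and U1, the snRNAs that recognise the branch point and the 5′ splice site. They are shown because the ratio differed with where a fragment ended, and capitals mark the last 5 bases.
novel_5060_x368: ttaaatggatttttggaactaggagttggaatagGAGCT
novel_4823_x387: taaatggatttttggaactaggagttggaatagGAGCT
novel_4560_x409: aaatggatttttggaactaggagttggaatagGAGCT
novel_6926_x273: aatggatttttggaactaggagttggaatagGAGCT
novel_11728_x168: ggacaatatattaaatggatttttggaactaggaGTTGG
novel_426_x3250: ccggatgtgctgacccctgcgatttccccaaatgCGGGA
novel_3093_x593: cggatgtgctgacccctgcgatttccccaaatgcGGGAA
novel_9449_x204: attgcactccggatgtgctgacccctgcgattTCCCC
The first 4 are U2 fragments with the same last base, novel_11728_x168 is a U2 fragment that ends earlier, and the last 3 are U1 fragments.

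Fragments of tRNA were also lower in HPC0h, and the most abundant one of each leading tRNA is shown with its first base in capitals.
novel_2845_x640: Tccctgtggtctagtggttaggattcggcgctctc
rno_piR_005567: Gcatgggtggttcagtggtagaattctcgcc
novel_12093_x163: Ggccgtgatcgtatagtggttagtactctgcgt
rno_piR_005901: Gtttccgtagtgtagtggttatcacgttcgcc
In that order they are fragments of the 5′ part of tRNA-Glu, tRNA-Gly, tRNA-His and tRNA-Val.

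A larger share of the HPC0h library than of Sham was 28S rRNA, and a smaller share was tRNA, U2, U1 and Y1 RNA. Of the 2020 sequences tested, 514 (25.4%) were higher in HPC0h and 322 (15.9%) were lower, where higher and lower mean a ratio of 2 or more either way with an interval that excludes 1. The other 1184 were not called, and the interval held 1 for 970 sequences. Later counts of called members are to be read against the 25.4% higher and 15.9% lower over all sequences. The 514 higher sequences fell in 68 families and the 322 lower ones in 96, so the counts are not of independent RNAs. With sequences summed by family, 28 of 187 families tested were higher and 57 were lower, and the median family ratio was 0.740.

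Listing in both libraries differed between the directions. Of the higher sequences, 221 were not listed in Sham at all, whereas 6 of the lower ones were not listed in HPC0h. Among the 1570 sequences listed in both libraries, 293 (18.7%) were higher and 316 (20.1%) were lower, and the median ratio was 1.12. The authors' normalized table put all 293 and all 316 on the same side. Of the 221 not listed in Sham, 178 had a Sham value in that table, and 148 of them differed there by a ratio of 2 or more. At the count minimum, 52 sequences had a larger count of exactly 10, of which 20 were listed in both libraries and 9 were called. Another 52 had a larger count of exactly 9 and were left out, of which 19 were listed in both.

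The IgG library was set beside both directions of call. In HPC0h, 192 of the 514 higher sequences were above IgG by the same rule and 19 below it, 21 of the 322 lower sequences were above and 95 below, and 171 of the 1184 uncalled sequences were above and 138 below. In Sham, 2 of the higher sequences were above IgG and 271 below, 182 of the lower ones were above and 7 below, and 80 of the uncalled ones were above and 215 below. The calls were chosen on HPC0h over Sham and both libraries were set against the same IgG values, so these counts are given as a description. What part nonspecific RNA has in these differences was not tested.

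**Figure D1:**
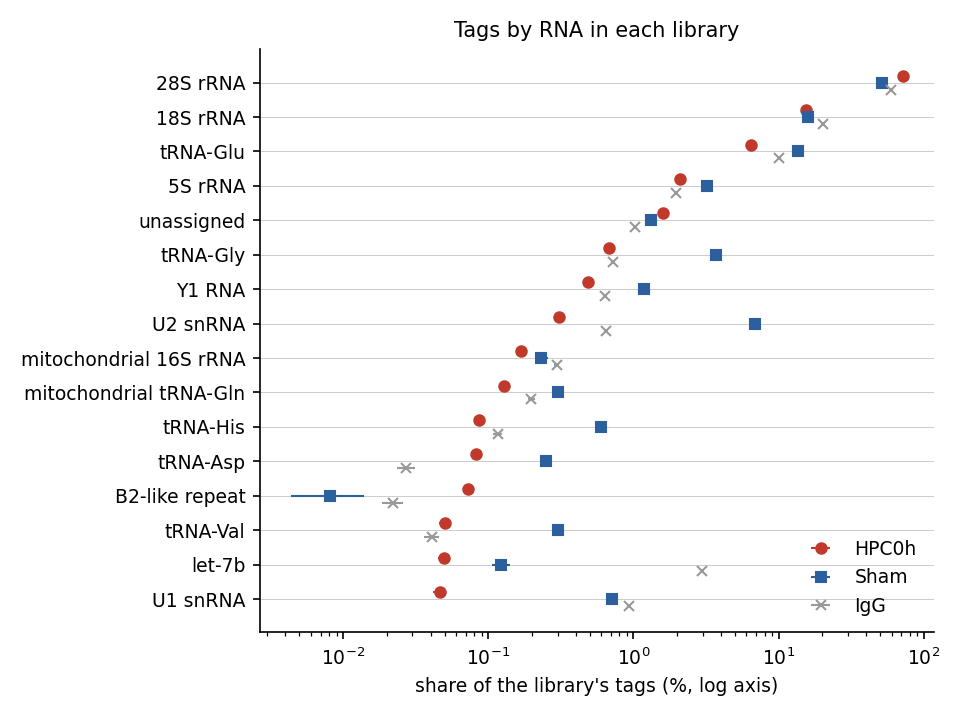
Share of each library's tags (percent, log axis) held by 16 recognised RNAs or groups in HPC0h (circles), Sham (squares) and IgG (crosses), 1 library each, with exact 95% counting intervals where they exceed the symbol. The 28S rRNA point is highest in HPC0h at 71.8%, and the U2 snRNA points lie at 0.305% in HPC0h and 6.86% in Sham.

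Ribosomal RNA led both libraries. Fragments of 28S rRNA held 71.8% of tags in HPC0h, 51.2% in Sham and 59.8% in IgG, a ratio of 1.40 (95% interval 1.39 to 1.41). Of 999 such sequences tested, 287 were higher in HPC0h and 118 were lower, shares close to the 25.4% and 15.9% over all sequences. The 5′ end family alone held 52.9% in HPC0h and 33.2% in Sham. All other 28S fragments together had a ratio of 1.05 (1.04 to 1.06), which became 1.49 with that family left out of the totals. Of their 802 sequences tested, 208 were higher and 116 lower, again close to the 25.4% and 15.9% over all sequences. The 18S rRNA of the small subunit held 15.5% in HPC0h, 15.9% in Sham and 20.1% in IgG. The 18S ratio of 0.970 (0.957 to 0.983) became 1.38 when the 28S 5′ end family was left out of the totals and 1.04 in the authors' normalized table, so 18S rRNA as a whole has no settled direction. Among 705 18S sequences tested, 183 were higher, near the 25.4% over all sequences, and 64 were lower, set against 15.9%. Fragments of 5S rRNA, another RNA of the large subunit, held 2.10% in HPC0h, 3.22% in Sham and 1.97% in IgG, with a ratio of 0.651 (0.631 to 0.672). The 5S ratio became 0.924 with the 28S 5′ end family left out of the totals. Of 23 5S sequences tested, 11 were lower and 3 higher, set against 15.9% and 25.4% over all sequences. The leading 5S sequence, novel_11003_x177, had 10133 tags in HPC0h, 3210 in Sham and 7225 in IgG (ratio 0.605, 0.581 to 0.630).

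The 28S 5′ end family made up most of the HPC0h library and shifted towards fragments that lacked the first base. Its 239 sequences held 439695 tags in HPC0h, 52824 in Sham and 276717 in IgG, or 52.9%, 33.2% and 41.4% of tags in that order (ratio 1.60, 1.58 to 1.61). Of 197 members tested, 79 were higher in HPC0h and 2 lower, set against 25.4% and 15.9% over all sequences. The full-start sequence novel_88_x12235 alone held 164745 tags in HPC0h, 20894 in Sham and 107258 in IgG, a ratio of 1.51 (1.49 to 1.53). Fragments that began at the first base of novel_88_x12235 held 70.7% of the family's tags in HPC0h, 83.0% in Sham and 83.2% in IgG. Those that began later held 29.3% in HPC0h, 17.0% in Sham and 16.8% in IgG, and their ratio was 2.76 (2.70 to 2.82), against 1.36 (1.34 to 1.37) for starts at the first base. Within this family, then, HPC0h differed from both Sham and IgG in its later starts.

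Both ends mattered to the size of the ratio. Bases are counted from 1 at the first base of novel_88_x12235. With the start at base 1, the ratio was 2.51 (1.97 to 3.25) for ends at base 33 and 1.71 (1.49 to 1.98) at base 34. It was 1.10, 1.06 and 1.13 for ends at bases 35, 36 and 37. For ends at bases 38 and 39 it was 1.34 and 1.52, so it was lowest in the middle of this range. These values pool sequences with a substituted base, described below, with 35 sequences at base 33 and 22 at base 34. Of the 917 HPC0h and 70 Sham tags ending at base 33, the unsubstituted sequence held 195 and 22. The ratio at that end was therefore mostly that of substituted sequences. With the start at base 2, it was between 1.79 and 1.94 for ends at bases 35 to 37, 3.13 for an end at base 38 (2.71 to 3.64), 5.98 for an end at base 39 (5.43 to 6.61) and 1.84 for an end at base 40 (1.77 to 1.91). The start at base 2 with the end at base 39 is novel_896_x1768, with 13203 tags in HPC0h, 423 in Sham and 3705 in IgG. The start at base 2 with the end at base 40 is novel_12973_x153, 1 base longer, with 28510 tags in HPC0h, 2968 in Sham and 12028 in IgG. A single base at the 3′ end thus separated a ratio near 6 from one under 2.

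The same step recurred with the start at base 4. Ends at bases 39, 40 and 41 had ratios of 6.11, 6.04 and 5.27, and the end at base 42, novel_3110_x591 with 27853 tags in HPC0h, 2851 in Sham and 12561 in IgG, had a ratio of 1.87 (1.80 to 1.95). With the start at base 3 no such step was seen, since ends at bases 39, 40 and 41 had ratios of 5.14, 5.29 and 4.46. The last of these is novel_3847_x482, with 9940 tags in HPC0h, 427 in Sham and 3105 in IgG. The sequences at the step, those starting at bases 2 and 4 with the low ratio, are 39 nt long, as is novel_3847_x482, and 39 nt is the longest length in the table. Longer fragments, if present in the samples, are therefore not seen.

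**Figure D2:**
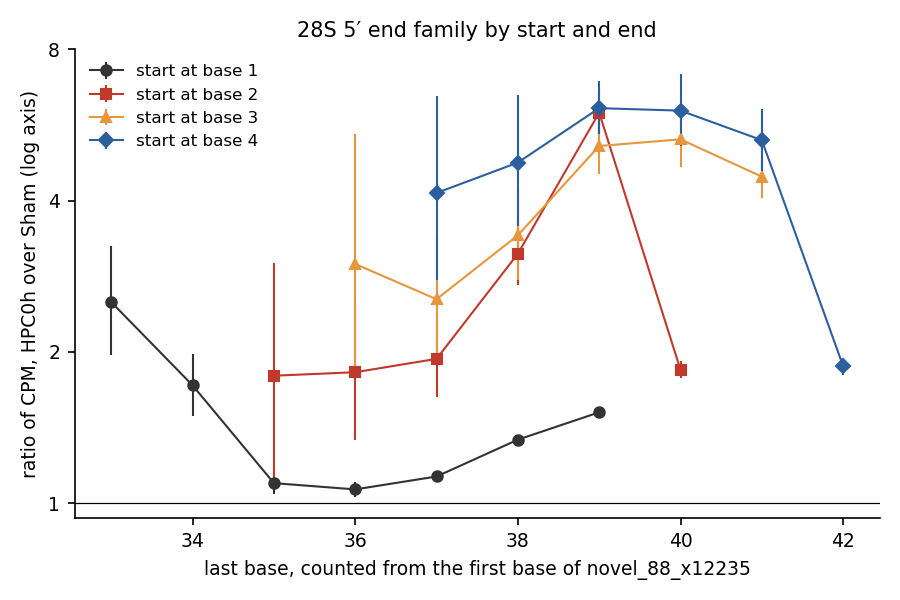
Ratio of CPM, HPC0h over Sham (log axis), of the 28S 5′ end family by last base (x axis, counted from the first base of novel_88_x12235), with 1 line per first base (1 to 4). Bars are exact 95% counting intervals, and only combinations with 10 or more tags in Sham are drawn. Sequences with a substituted base are included. Fragments starting at base 1 stay between 1.06 and 2.51, while those starting at bases 2 to 4 reach 5.29 to 6.11.

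The family also held sequences with 1 substituted base. Among those that start at base 1, the 7 unsubstituted sequences held 282155 tags in HPC0h, 39720 in Sham and 208837 in IgG (ratio 1.36, 1.35 to 1.38). The 145 sequences with a substitution other than at the last base held 18477 tags in HPC0h, 2280 in Sham and 14061 in IgG (ratio 1.55, 1.49 to 1.62). The 4 with a substituted last base held 11035 tags in HPC0h, 2046 in Sham and 8152 in IgG (ratio 1.03, 0.986 to 1.08). The most abundant of them carried T36C, with the base of novel_88_x12235 first and the position counted from its first base, and held 7269 tags in HPC0h, 1394 in Sham and 5628 in IgG. Its ratio of 1.00 (0.944 to 1.06) was close to that of its unsubstituted counterpart novel_22_x47777, which had 12009 tags in HPC0h, 2244 in Sham and 9578 in IgG and a ratio of 1.03 (0.980 to 1.07). Together the unsubstituted and substituted sets slightly exceed the 310714 HPC0h tags counted above as starting at the first base. Some sequences were thus assigned another start in those earlier counts.

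In a further 28S family the ratio also differed by start position, and it was highest at the start of the leading sequence. It holds 106 sequences, was 3.01% of tags in HPC0h, 1.22% in Sham and 1.24% in IgG, and had a ratio of 2.46 (2.35 to 2.58), with 34 of 75 members higher and 3 lower. Its leading sequences are shown to mark where the difference lay, with the first 5 bases in capitals.
novel_4400_x424: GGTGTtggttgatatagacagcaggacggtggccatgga
novel_2114_x852: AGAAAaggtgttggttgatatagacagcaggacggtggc
novel_7607_x251: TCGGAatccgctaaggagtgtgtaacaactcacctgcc
Starts were counted from the first base of novel_4400_x424 as base 1, with position 0 just upstream of it. The 50 sequences that start between position -6 and base 2 held 20588 tags in HPC0h, 1052 in Sham and 4220 in IgG. Their ratio was 3.75 (3.53 to 3.99). The 56 sequences with other starts held 4427 tags in HPC0h, 897 in Sham and 4100 in IgG, a ratio of 0.946 (0.880 to 1.02). Among the starts from position -6 to base 2, the ratio was lowest at position -6 (2.13, 1.73 to 2.64). It was highest at base 1 (9.63, 7.93 to 11.8) and was 5.94 at base 2. These start windows were set after the values had been seen.

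Within that family single sequences had ratios from well above 1 to the lowest of the ranked sequences. The leading sequence novel_4400_x424 had 4786 tags in HPC0h, 96 in Sham and 507 in IgG, a ratio of 9.56 (7.81 to 11.8). The upstream novel_2114_x852 had 2702 tags in HPC0h, 209 in Sham and 853 in IgG, a ratio of 2.48 (2.15 to 2.87). Further downstream, novel_7607_x251 had 410 tags in HPC0h, 142 in Sham and 647 in IgG, a ratio of 0.553 (0.456 to 0.675). Another member, novel_11919_x165, had 3 tags in HPC0h, 59 in Sham and 224 in IgG. Its ratio was 0.00975 (0.00195 to 0.0299).

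Other 28S families moved in either direction. The second largest, that of novel_716_x2139, held 4.55% of tags in HPC0h, 4.37% in Sham and 3.48% in IgG (ratio 1.04, 1.01 to 1.07), with 40 of 107 members higher and 12 lower. The family of novel_4919_x380 had a ratio of 1.80 (1.70 to 1.91) with 10 of 24 members higher and 0 lower. The family of novel_21089_x102 had a ratio of 2.44 (2.06 to 2.91) with 10 of 17 higher. In contrast, the family of novel_6177_x303 had a ratio of 0.520 (0.488 to 0.555) with 18 of 23 members lower and 0 higher, and that of novel_5113_x364 had a ratio of 0.404 (0.380 to 0.430) with 13 of 24 lower and 0 higher. Among the 19 families of 28S rRNA that held 0.2% or more of the tags of either library, 2 were higher, 1 was lower and the median ratio was 0.924.

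Single 18S families held members that differed in opposite directions. None of the 10 families that held 0.2% or more was called as a sum, and their ratios lay between 0.706 and 1.61. In the family of novel_5384_x347, whose sum had a ratio of 1.28 (1.22 to 1.34), the leading sequence had 1091 tags in HPC0h, 462 in Sham and 3585 in IgG (ratio 0.453, 0.406 to 0.506). Another of its members, novel_16076_x127, had 752 tags in HPC0h, 15 in Sham and 612 in IgG (ratio 9.61, 5.79 to 17.3). The sum of this family therefore did not describe these members. The family of novel_7652_x249 also held both directions. Its leading sequence had 4104 tags in HPC0h, 391 in Sham and 4768 in IgG (ratio 2.01, 1.81 to 2.24). Its member novel_16529_x123 had 10 tags in HPC0h, 91 in Sham and 67 in IgG (ratio 0.0211, 0.00977 to 0.0405). Of 26 families of 18S rRNA, 16 held higher sequences and 14 held lower ones.

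Fragments of U2 snRNA showed the largest deficit in HPC0h of any RNA that held over 1% of tags in either library. They held 0.305% of tags in HPC0h, 6.86% in Sham and 0.642% in IgG, a ratio of 0.0445 (0.0426 to 0.0465). Of 34 U2 sequences tested, 28 were lower in HPC0h and 0 higher, set against 15.9% and 25.4% over all sequences. The leading sequence novel_5060_x368 had 265 tags in HPC0h, 5131 in Sham and 557 in IgG, a ratio of 0.0099 (0.00872 to 0.0112). The U2 share was 0.475 of that of IgG in HPC0h and 10.7 times that of IgG in Sham.

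Much of the U2 difference lay in fragments with 1 last base. Counted from the first base of novel_5060_x368, the 5 sequences that end at base 39, which include the 4 printed with GAGCT as their last letters, held 743 tags in HPC0h, 9300 in Sham and 1033 in IgG. Their summed share was 65.3-fold lower in HPC0h (60.6 to 70.5). The 41 family members with other ends held 1640 tags in HPC0h, 1425 in Sham and 2872 in IgG, and were 4.53-fold lower (4.22 to 4.87). Fragments ending at base 39 made up 31.2% of the family's tags in HPC0h, 86.7% in Sham and 26.5% in IgG. Both groups of ends were thus lower in HPC0h, by very different amounts, and the share of that end in HPC0h lay nearer to IgG than to Sham.

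Single U2 sequences followed their end. With the end at base 39, novel_4823_x387 had 229 tags in HPC0h, 2328 in Sham and 270 in IgG, novel_4560_x409 had 149, 1402 and 139, and novel_6926_x273 had 69, 342 and 40. Their ratios were 0.0189 (0.0164 to 0.0216), 0.0204 (0.0171 to 0.0241) and 0.0387 (0.0294 to 0.0502). The fragment novel_11728_x168, which ends at base 29, had 268 tags in HPC0h, 209 in Sham and 333 in IgG, a ratio of 0.246 (0.204 to 0.296).

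U1 snRNA was lower in HPC0h as well, but there IgG lay on the side of Sham. U1 fragments held 0.0464% of tags in HPC0h, 0.716% in Sham and 0.939% in IgG, a ratio of 0.0647 (0.0575 to 0.0727), and 9 of 12 sequences tested were lower and 0 higher. Counted from the first base of novel_9449_x204, fragments of the main U1 family that start at base 9 or 10 held 130 tags in HPC0h, 981 in Sham and 2298 in IgG, and were 39.4-fold lower in HPC0h (32.8 to 47.6). Fragments with other starts held 193 tags in HPC0h, 97 in Sham and 2873 in IgG, and were 2.62-fold lower (2.03 to 3.36). The leading sequence novel_426_x3250, which starts at base 9, had 34 tags in HPC0h, 573 in Sham and 1399 in IgG, a ratio of 0.0114 (0.0078 to 0.0161). Its neighbour novel_3093_x593, which starts at base 10, had 37 tags in HPC0h, 304 in Sham and 669 in IgG (ratio 0.0233, 0.0161 to 0.0329). The single U5 sequence tested was not listed in HPC0h and had 41 tags in Sham and 146 in IgG. U6, by contrast, had a ratio of 0.643 (0.418 to 1.02), with 0 of 2 sequences called.

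**Figure D3:**
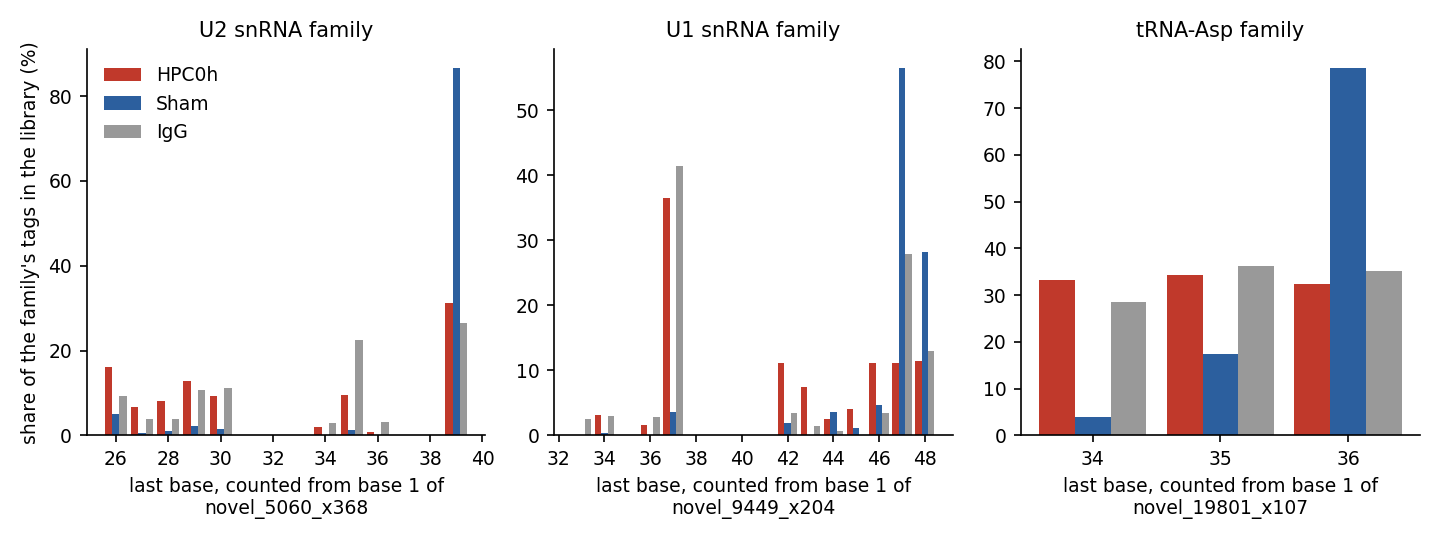
Share of the family's tags (percent) by last base of the fragment in HPC0h, Sham and IgG, 1 library each, for the U2, U1 and tRNA-Asp families. Positions are counted from base 1 of the sequence named under each panel, and ends holding under 2% in all 3 libraries are not drawn. The most used last base of U2 holds 31.2% of tags in HPC0h and 86.7% in Sham, and that of tRNA-Asp in Sham holds 32.4% in HPC0h and 78.6% in Sham.

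Transfer RNA fragments were lower in HPC0h for every tRNA with a called sum. In all they held 7.43% of tags in HPC0h, 18.6% in Sham and 11.0% in IgG, a ratio of 0.400 (0.395 to 0.406). Of 53 tRNA sequences tested, 32 were lower and 3 higher, set against 15.9% and 25.4% over all sequences. The tRNA-Glu fragments were the most abundant, at 6.45% in HPC0h and 13.5% in Sham (ratio 0.477, 0.469 to 0.484), with 15 of 18 lower and 1 higher. Their ratio became 0.677 with the 28S 5′ end family left out of the totals. Set against IgG, their share was 0.645 in HPC0h and 1.35 in Sham. The main tRNA-Glu family moved as 1 block, since its 6 tested members had ratios between 0.463 and 0.515. Its leading sequence novel_2845_x640 had 30405 tags in HPC0h, 12597 in Sham and 40303 in IgG (ratio 0.463, 0.453 to 0.472).

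The tRNA-Gly and tRNA-His differences were larger, and HPC0h was near IgG in both. The tRNA-Gly fragments held 0.676% of tags in HPC0h, 3.71% in Sham and 0.723% in IgG, so the share was 0.935 of that of IgG in HPC0h and 5.12 times that of IgG in Sham. Almost all of this was rno_piR_005567, with 5566 tags in HPC0h, 5888 in Sham and 4805 in IgG (ratio 0.181, 0.175 to 0.188). The other 2 tRNA-Gly sequences tested were not called. The tRNA-His fragments held 0.0863% in HPC0h, 0.593% in Sham and 0.116% in IgG (ratio 0.146, 0.132 to 0.161), with 4 of 5 lower, led by novel_12093_x163 with 460 tags in HPC0h, 722 in Sham and 436 in IgG. The tRNA-Val fragments held 0.0507% in HPC0h, 0.303% in Sham and 0.0407% in IgG (ratio 0.167, 0.147 to 0.191), with 3 of 3 lower. Of these, rno_piR_005901 had 386 tags in HPC0h, 444 in Sham and 221 in IgG.

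A tRNA-Asp family from the 3′ part of the molecule had, like U2, a smaller share at the main Sham end in HPC0h. Unlike in U2, its end furthest upstream was higher in HPC0h. Its fragments are shown with the last 5 bases in capitals.
novel_19801_x107: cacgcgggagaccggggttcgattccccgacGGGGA
novel_3644_x506: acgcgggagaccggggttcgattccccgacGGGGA
novel_9909_x195: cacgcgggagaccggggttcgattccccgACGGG
novel_3619_x509: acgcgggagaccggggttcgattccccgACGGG
Counted from the first base of novel_19801_x107, fragments ending at base 36 held 220 tags in HPC0h, 313 in Sham and 64 in IgG (ratio 0.135, 0.113 to 0.161). Those ending at base 35 held 233 tags in HPC0h, 69 in Sham and 66 in IgG (ratio 0.647, 0.493 to 0.860). Those ending at base 34 held 226 tags in HPC0h, 16 in Sham and 52 in IgG (ratio 2.71, 1.63 to 4.82). The end at base 36 made up 32.4% of the family in HPC0h, 78.6% in Sham and 35.2% in IgG, so the ends of HPC0h were spread as those of IgG were and Sham favoured 1 end. The sum of all tRNA-Asp fragments was lower in HPC0h, with a ratio of 0.331 (0.292 to 0.375). Its share was still 3.04 times that of IgG in HPC0h, and 9.19 times that of IgG in Sham.

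Of the remaining tRNAs, tRNA-Gln had a ratio of 0.230 (0.175 to 0.303) with 2 of 2 sequences lower, and initiator tRNA-Met (tRNA-iMet) had a ratio of 0.485 (0.326 to 0.734) with 1 of 2 lower. tRNA-Pro had a ratio of 0.528 (0.360 to 0.792), and neither of its sequences was called. tRNA-Lys had a ratio of 0.740 (0.598 to 0.923) that became 1.05 with the 28S 5′ end family left out of the totals and 0.285 without its leading sequence. That leading sequence, rno_piR_005598, had 319 tags in HPC0h, 42 in Sham and 117 in IgG (ratio 1.46, 1.05 to 2.06). The other 2 tRNA-Lys sequences were lower, so the tRNA-Lys sum has no settled direction. Mitochondrial tRNA-Gln fragments had a ratio of 0.422 (0.379 to 0.471), with 6 of 9 lower and 0 higher.

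Short noncoding RNAs of other kinds moved apart. Y1 RNA, a partner of the Ro60 protein, held 0.482% of tags in HPC0h, 1.17% in Sham and 0.639% in IgG (ratio 0.411, 0.389 to 0.434), with 8 of 12 sequences lower and 0 higher. Its leading sequence novel_14710_x137 had 1502 tags in HPC0h, 878 in Sham and 1458 in IgG (ratio 0.328, 0.302 to 0.357). The 12 sequences tested had ratios between 0.328 and 0.537. The summed Y1 ratio became 0.583 with the 28S 5′ end family left out of the totals. 7SL RNA, the RNA of the signal recognition particle, had a ratio of 0.465 (0.380 to 0.571) with 3 of 4 lower. The neuronal BC1 and the related ID repeats had a ratio of 1.66 (1.20 to 2.34) with 1 of 4 higher, and 4.5S(H) RNA had a ratio of 1.02 (0.902 to 1.15) with 2 of 17 higher and 2 lower. The mitochondrial 16S rRNA ratio of 0.729 (0.649 to 0.820) became 1.03 with the 28S 5′ end family left out of the totals.

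A family resembling the B2 repeat, a rodent retrotransposon transcribed by RNA polymerase III, was higher in HPC0h. It held 600 tags in HPC0h, 13 in Sham and 147 in IgG, a ratio of 8.85 (5.13 to 16.7), and 3 of 4 sequences tested were higher. Transposons are the best known piRNA targets, so 1 of its sequences is shown, with the first base in capitals.
novel_15116_x134: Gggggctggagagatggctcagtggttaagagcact
This sequence had 218 tags in HPC0h, was not listed in Sham and had 10 in IgG. It is 36 nt long, and its strand relative to the repeat was not checked. The authors' normalized table gives it 290 in HPC0h and 8 in Sham. All 13 Sham tags of the family fell on another sequence, novel_9037_x213, which had 191 tags in HPC0h and 107 in IgG (ratio 2.82, 1.61 to 5.39).

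Several called sequences were listed in 1 of the 2 libraries, and for these the tags are given in place of a ratio. The 18S sequence novel_12380_x160 had 274 tags in HPC0h, was not listed in Sham and had 67 in IgG, and the authors' normalized table gives it 308 in HPC0h and 9 in Sham. The 18S sequence novel_13901_x144 had 236 tags in HPC0h, was not listed in Sham and had 213 in IgG. Its normalized values were 283 in HPC0h and 3 in Sham. On the other side, the U2 sequence novel_10771_x181 was not listed in HPC0h and had 31 tags in Sham and 61 in IgG. The 28S sequence novel_17852_x116 was not listed in HPC0h and had 14 tags in Sham and 6 in IgG. The normalized table gives novel_10771_x181 1 in HPC0h and 158 in Sham, and novel_17852_x116 2 in HPC0h and 121 in Sham. The counts on the HPC0h side were larger, in a library 5.22 times as deep.

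Unassigned sequences held 1.59% of tags in HPC0h, 1.31% in Sham and 1.02% in IgG, and 31 of 124 tested were higher, near the 25.4% over all sequences, and 36 were lower, set against 15.9%. The unassigned ratio of 1.21 (1.16 to 1.27) became 0.833 without the most abundant sequence, novel_12673_x157. The 19 sequences of its family held 6896 tags in HPC0h, 45 in Sham and 615 in IgG, a ratio of 29.4 (21.9 to 40.3), and 13 of 15 tested were higher. The leading sequence novel_12673_x157 had 4254 tags in HPC0h, 33 in Sham and 353 in IgG, a ratio of 24.7 (17.6 to 35.9). The family's share was 9.03 times that of IgG in HPC0h and 0.307 of that of IgG in Sham. It was the family with the highest ratio among those listed in both libraries, and the organism and RNA it comes from were not checked.

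**Figure D4:**
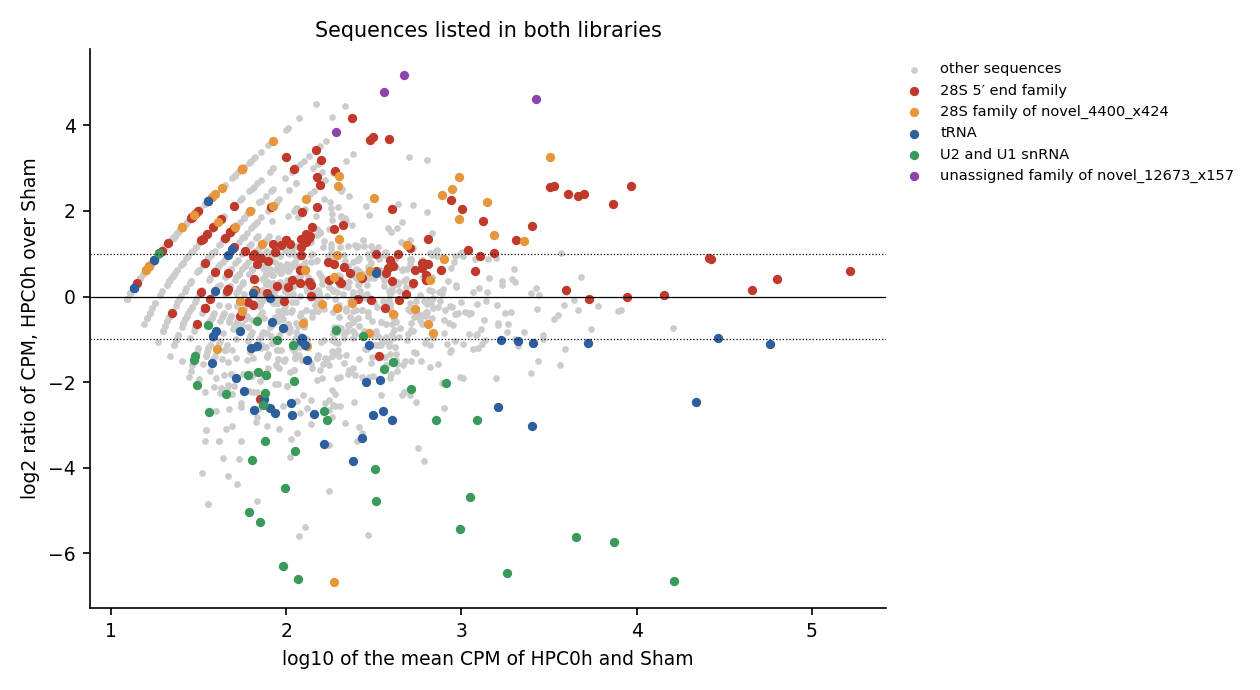
Log2 ratio of CPM (HPC0h over Sham, y axis) against the log10 of the mean CPM of HPC0h and Sham (x axis) for the 1570 sequences listed in both libraries, 1 point per sequence, with dotted lines at a ratio of 2 either way. The 28S 5′ end family and the family of novel_12673_x157 lie mostly above 0, and tRNA, U2 and U1 fragments lie mostly below it. Diagonal rows at the left are sequences with the same small count in Sham.

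Sequences with catalogued piRNA names (rno_piR) were few and lower as a group in HPC0h. The 126 of them held 0.860% of tags in HPC0h, 4.23% in Sham and 0.915% in IgG, a ratio of 0.203 (0.197 to 0.210). Of 21 tested, 12 were lower and 1 was higher, set against 15.9% and 25.4% over all sequences. Most of these tags belonged to sequences recognised as tRNA, and without the tRNA fragments the ratio was 0.560 (0.477 to 0.659), with 5 of 11 lower and 1 higher. Besides the tRNA-Gly and tRNA-Val fragments above, rno_piR_008174, within 18S rRNA, had 75 tags in HPC0h, 39 in Sham and 145 in IgG (ratio 0.369, 0.247 to 0.558). The unassigned rno_piR_023471 had 36 tags in HPC0h, 37 in Sham and 38 in IgG (ratio 0.186, 0.115 to 0.303). The 1 higher sequence, rno_piR_000746, had 33 tags in HPC0h, was not listed in Sham and had 9 in IgG. Some rno_piR names matched RefSeq mature microRNAs. Among these rno_piR_015914 (rno-miR-672-5p) had 2 tags in HPC0h, 0 in Sham and 103 in IgG.

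The microRNA let-7b, which loads into Argonaute proteins of the other subfamily, served as a mark of RNA that is not piRNA. The listed sequence novel_4906_x381 matched the RefSeq mature rno-let-7b-5p over its own length. That mature sequence, with the seed (bases 2 to 8) in capitals, is shown here from the RefSeq table of build GRCr8.
rno-let-7b-5p: uGAGGUAGuagguugugugguu
It had 414 tags in HPC0h, 195 in Sham and 19772 in IgG, a ratio of 0.407 (0.342 to 0.485) between HPC0h and Sham. Both Piwil2 libraries lay far below IgG, at 0.0169 of its share in HPC0h and 0.0414 in Sham.

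Fragments of 26 to 31 nt, lengths near those of piRNAs, held a smaller share of tags in HPC0h than in Sham, as did sequences with a first uridine. Fragments of 26 to 31 nt held 1.15% of tags in HPC0h, 4.57% in Sham and 1.19% in IgG (ratio 0.252, 0.245 to 0.260). Most of these tags in each library belonged to the 31-nt tRNA-Gly fragment rno_piR_005567. Without it they held 0.483% in HPC0h, 0.874% in Sham and 0.470% in IgG, and the ratio was 0.552 (0.520 to 0.588). At 31 nt the shares were 0.827% in HPC0h, 3.93% in Sham and 0.894% in IgG, and without that fragment the ratio at this length was 0.668 (0.595 to 0.751). At 26 nt the share was not smaller in HPC0h, at 0.0176% in HPC0h, 0.0163% in Sham and 0.0135% in IgG. Sequences of 33 nt or more held 98.2% of tags in HPC0h and 94.2% in Sham. At 35 nt, where the tRNA-Glu fragment novel_2845_x640 leads, they were 6.66% in HPC0h, 10.9% in Sham and 8.80% in IgG. At 39 nt they were 49.7% in HPC0h, 44.9% in Sham and 44.8% in IgG. A first base T, the DNA letter for uridine, was found in 15.9% of tags in HPC0h, 29.2% in Sham and 23.9% in IgG. With tRNA-Glu and the 28S 5′ end family left out the shares were 23.7%, 30.5% and 29.3% in the same order.

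An A at base 10, the mark of piRNAs made by cleavage opposite another piRNA, was found in 47.6% of tags in HPC0h, 35.8% in Sham and 46.8% in IgG. The 28S 5′ end family carried most of it. Without that family the shares were 15.4% in HPC0h, 11.6% in Sham and 19.4% in IgG. With those families left out, both base features were no more frequent in HPC0h than in IgG, but these shares include let-7b. That microRNA has both features and held 2.96% of tags in IgG, 0.0498% in HPC0h and 0.122% in Sham. Shares without let-7b were not computed, so the comparison with IgG is not free of it.

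**Figure D5:**
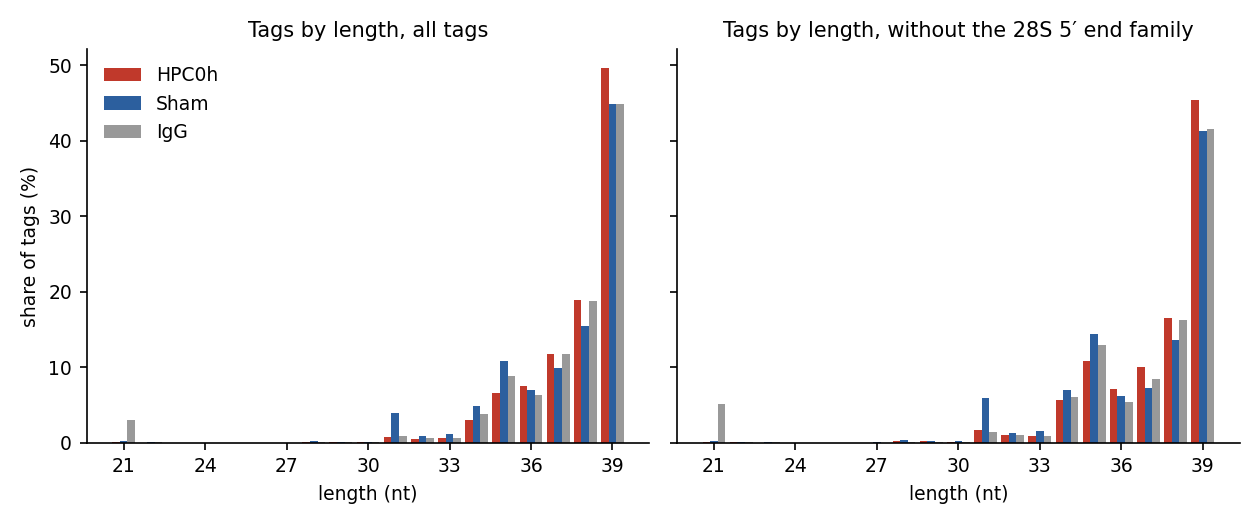
Share of tags (percent) by length in nt in HPC0h, Sham and IgG, 1 library each, for all tags (left) and without the 28S 5′ end family (right). At 31 nt the bars reach 0.827% in HPC0h and 3.93% in Sham in the left panel, the Sham bar is also the highest at 35 nt, and all libraries peak at 39 nt, the longest length listed.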

How the data were processed

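Small RNA from RIP was sequenced in 1 library each of HPC0h, Sham and IgG. Per the labels' protocols, adaptors were ligated, cDNA was amplified by PCR and amplicons of piRNA-sized inserts were selected. Per the submitters' processing notes the tools included cutadapt 1.9.3 and Novoalign 3.02.12, whose roles are not stated. Neither a genome build nor the source of the rno_piR names was given in the sources used here. Every ratio rests on tag counts, which the authors deposited as raw values per the file headers. The authors' normalized table was treated as a score, since its values are whole numbers of unstated scaling. For this work 40 raw and 46 normalized lines had been emptied. Unused columns numbered 0.

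Ratios and exact Clopper-Pearson 95% intervals were computed with Python 3.11.15, numpy 2.4.6, pandas 2.3.3 and scipy 1.17.1, TMM factors with edgeR 4.0.16 in R 4.3.3, and plots with matplotlib 3.10.9. The steps were tested on simulated data. Of 307 families, 122 were given provisional RNA names from general knowledge after their sequences had been seen, and 185 stayed unassigned. Of the family names only let-7b was checked, against RefSeq. Other sequences also matched RefSeq mature microRNAs, among them novel_5581_x335 (rno-miR-222-3p), with 7 tags in HPC0h and 0 in Sham. The comparison, its lists and its tests were chosen with earlier results of these data known. Named sequences were drawn from lists, and not every member of a list is named. A first list held the 10 with the highest mean CPM. Another held the 10 with the largest ratio in each direction among called ones listed in both libraries with 50 or more counts. Further lists held the leading sequence of each family holding 0.2% or more of tags, and called rno_piR names. The last held the leading sequences called but not listed in 1 library. Higher ones left unnamed above include the unassigned novel_17802_x116 (ratio 36.4), the 28S novel_1045_x1556 (22.5) and the 18S novel_21392_x101 (21.9). Lower ones include the U2 novel_9040_x213 (0.0364) and the unassigned novel_20861_x103 (0.0426). Other sequences were named after their values had been seen, to show fragment ends. Alternatives were other scalings, count and fold minimums, summing of overlapping sequences and the normalized table.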

Additional observations from a re-analysis of the deposited data

Results flagged for a closer look

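The authors' normalized table holds 762 sequences that have no line in the raw count table, so no ratio above uses them. In HPC0h 0 of them reached a value of 10, and in Sham 22 did. Of those 22, 18 were also 2-fold or more above IgG in that table. The highest Sham value among these sequences was 19. With its scaling unstated, these values are not CPM and carry no counting interval.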

How the results depend on the processing

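TMM scaling moved all log2 ratios by 0.03 and gave 543 higher and 304 lower calls, against 514 and 322 by column totals. Size factors by the median of ratios moved them by -0.06 and gave 489 and 342. Leaving the 28S 5′ end family out of the totals moved them by 0.51 and gave 832 and 199. The normalized table, without intervals, gave 869 and 520. Sequences listed in both libraries gave 293 higher, a minimum of 50 counts gave 162 lower, and a 4-fold minimum gave 134 lower. Summing by family gave 28 higher and 57 lower, and summing contained sequences into the longer one gave 221 and 184. Without the 28S 5′ end family in the totals, the ratios that passed 1 include these, besides those of further families: 18S rRNA at 1.38, mitochondrial 16S rRNA at 1.03, tRNA-Lys at 1.05, the family of novel_12320_x160 at 1.28, and novel_12320_x160 at 1.14, novel_15140_x134 at 1.21, novel_17456_x118 at 1.05, novel_18520_x112 at 1.26, novel_19730_x107 at 1.06 and novel_5688_x328 at 1.13. The 18S rRNA ratio was 1.04 by the normalized values. Without its most abundant sequence the unassigned sum was at 0.833 and the family of rno_piR_005567 at 2.01. Of 105 single ratios and sums, 94 stayed within their counting interval under TMM and 84 under the median of ratios. By the normalized values 56 did so, and with the 28S 5′ end family left out of the totals only 25 did. Low Sham counts limit the higher calls: 221 rest on sequences not listed there. No paired analysis was possible because each group has 1 library.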
